A study of Mus musculus with 6 samples.

Results

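A set of 10 genes that mark the mouse oocyte was followed by symbol in bulk RNA-seq of whole ovaries: the zona pellucida genes Zp1, Zp2 and Zp3, the genes of the secreted oocyte proteins Gdf9, Bmp15 and Oosp1, and the oocyte transcription factor genes Nobox, Figla, Sohlh1 and Lhx8. These 10 genes were found once each among 55536 genes of the count table, and all 10 were among the 17499 genes that passed the filter on low counts and were tested. M1 was given to 3 female ICR mice. It is a phenylhydrazone compound used as a promoter of mitochondrial fusion, and was injected into the peritoneum at 10 mg per kg body weight at 9 h and again at 16 h on the day of proestrus. The 3 Control mice were of the same strain, sex and stage, and the content of the Control treatment was not described in the labels, which call the M1 samples cycle disrupted and the Control samples normal. The M1 solution held 1 mg of the compound per ml, and its solvent was 85% PBS with 10% Tween80 and 5% DMSO. The ovaries of all 6 mice were taken at 20 h on proestrus at an age given as 10 weeks, both ovaries of a mouse were homogenized together, and each mouse gave 1 library of polyA RNA. The replicates are separate mice.

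The zona pellucida is the glycoprotein coat around the oocyte, and in the mouse it is built from ZP1, ZP2 and ZP3, which the growing oocyte makes and secretes. GDF9 and BMP15 are growth factors of the TGF-beta family that the oocyte sends to the granulosa and cumulus cells around it. NOBOX, FIGLA, SOHLH1 and LHX8 are transcription factors of the oocyte that are needed in the early stages of follicle formation and growth, and FIGLA is known as an activator of the zona genes. In bulk ovary RNA, fewer or smaller oocytes and less RNA of a gene per oocyte cannot be told apart.

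The sequences upstream of the genes are given first, since E-boxes (CANNTG) are bound by FIGLA and SOHLH1, and the letters TAATTG or TAATTA and TGATTG are known as NOBOX and LHX8 elements. RefSeq promoters on the build GRCm38.p6, from 250 bases before to 50 bases after a start, were matched for 7 of the 10 genes. Zp1, Zp2 and Gdf9 were not matched. Both strands were searched, and the 3 kinds of motif did not overlap each other in these promoters. An E-box was found in 6 of the 7 promoters, with none in that of Lhx8, and 72.3% of the 32851 promoters of the table held at least 1. A NOBOX element and an LHX8 element were found only in the promoter of Bmp15 among the 7, against 12.4% and 14.0% of all promoters in the table. The 4 stretches below are the 250 bases before the start, 5′ to 3′ along the gene, with motif matches in capitals. Zp3 is shown as the zona gene with E-boxes, Bmp15 as the gene with all 3 motifs, Nobox as the gene with the smallest p below, and Sohlh1 for its 3 copies of CACGTG. Their positions are chr5:135979855-135980104 on the plus strand for Zp3 and, on the minus strand, chrX:6320725-6320974 for Bmp15, chr6:43309555-43309804 for Nobox and chr2:25847249-25847498 for Sohlh1.
Zp3: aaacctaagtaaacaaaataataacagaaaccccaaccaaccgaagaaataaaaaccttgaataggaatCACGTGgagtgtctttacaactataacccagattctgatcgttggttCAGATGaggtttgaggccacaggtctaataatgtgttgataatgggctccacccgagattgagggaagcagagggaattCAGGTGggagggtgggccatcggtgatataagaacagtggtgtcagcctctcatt
Bmp15: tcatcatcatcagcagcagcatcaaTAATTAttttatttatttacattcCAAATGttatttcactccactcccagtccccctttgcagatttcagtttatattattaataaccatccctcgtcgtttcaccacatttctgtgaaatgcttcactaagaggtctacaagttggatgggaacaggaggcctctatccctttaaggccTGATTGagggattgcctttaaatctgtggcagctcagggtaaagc
Nobox: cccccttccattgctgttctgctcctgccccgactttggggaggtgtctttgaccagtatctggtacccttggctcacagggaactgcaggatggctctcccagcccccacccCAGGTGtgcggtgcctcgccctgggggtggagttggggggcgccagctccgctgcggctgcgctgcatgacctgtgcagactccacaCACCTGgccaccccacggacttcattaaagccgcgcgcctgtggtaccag
Sohlh1: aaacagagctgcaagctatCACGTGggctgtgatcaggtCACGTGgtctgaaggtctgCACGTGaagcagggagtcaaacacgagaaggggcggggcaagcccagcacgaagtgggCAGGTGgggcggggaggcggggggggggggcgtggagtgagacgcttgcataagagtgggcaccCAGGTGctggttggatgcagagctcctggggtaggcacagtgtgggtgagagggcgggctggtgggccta
In the Zp3 stretch the E-boxes begin 181, 134 and 55 bases before the start. In the Bmp15 stretch, TAATTA begins 225 bases and TGATTG 45 bases before the start. These letters are a description of the sequence, and no binding was measured in the study.

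The libraries held 12536440 to 18651402 assigned counts, and the common biological coefficient of variation was 0.257. By edgeR's quasi-likelihood test with Benjamini-Hochberg adjustment, 1 of 17499 genes passed an adjusted p of 0.05 and a fold change of 1.5 between M1 and Control ovaries, and the same count was reached by limma-voom. DESeq2 called 405 of 15883 genes. Defining markers of the oocyte (Ddx4, Dazl, Npm2, Nlrp5, Padi6 and Ooep) were present in every library, with a summed level of 162 to 292 TPM in M1 ovaries and 341 to 566 TPM in Control ovaries. Of these 6, Ddx4, Nlrp5 and Padi6 did not overlap between the groups on TPM, and Dazl, Npm2 and Ooep did. On TPM, every M1 ovary was below every Control ovary for 23.1% of all tested genes. A wider list of 24 oocyte markers, which holds these 6, summed to 549 to 996 TPM in M1 ovaries. In Control ovaries it summed to 912 to 1674 TPM, so the groups overlapped on the wider list. All 6 granulosa markers and all 4 luteal markers were tested. Markers of granulosa cells summed to 1867 to 4044 TPM in M1 ovaries and 3022 to 4512 TPM in Control ovaries, and those of luteal cells to 1720 to 14530 TPM in M1 ovaries and 706 to 7772 TPM in Control ovaries.

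The levels are first given as TPM, which is scaled for gene length, so that they can be set beside each other between genes. Over all 6 mice the order by mean TPM was Zp3 (148 TPM), Gdf9 (129 TPM), Zp2 (124 TPM), Oosp1 (54.1 TPM), Bmp15 (52.9 TPM), Zp1 (42.6 TPM), Nobox (21.4 TPM), Lhx8 (7.32 TPM), Figla (4.56 TPM) and Sohlh1 (4.03 TPM). Not all of these steps held in every mouse. Zp2 was above Oosp1, Bmp15 above Zp1, Zp1 above Nobox and Nobox above Lhx8 in 6 of 6 mice. Zp3 was above Gdf9 in 5 mice, Gdf9 above Zp2 in 4, Oosp1 above Bmp15 in 3, Lhx8 above Figla in 5 and Figla above Sohlh1 in 4, so these neighbours did not keep their order from mouse to mouse. Zp3, Gdf9 and Zp2 formed the top of the order and the 3 transcription factors other than Nobox the bottom.

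The zona genes lie on 3 chromosomes of GRCm38: Zp1 at chr19:10914287-10920632, Zp2 at chr7:120126772-120145291 and Zp3 at chr5:135980099-135988624. Zp1 encodes the protein that crosslinks the zona filaments. Its level was 32.5, 23.7 and 39.4 TPM in M1 ovaries 1 to 3, against 69.5, 49.3 and 41.0 TPM in Control ovaries 1 to 3. Zp2, which encodes the protein that takes part in sperm binding and is cut after fertilization, had 103, 57.2 and 108 TPM in M1 ovaries, against 208, 142 and 124 TPM in Control ovaries. Zp3, the gene of the partner that forms the filaments with ZP2, had 131, 69.0 and 145 TPM in M1 ovaries, against 274, 143 and 126 TPM in Control ovaries. M1 mouse 2 had the lowest and Control mouse 1 the highest level of each of the 3 zona genes. For Zp3 the groups overlapped, since M1 mice 1 and 3 were above Control mouse 3.

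Gdf9 lies at chr11:53431023-53437904 and Bmp15 on the X chromosome at chrX:6314107-6320721. Gdf9, needed in the mouse for follicles to grow past the primary stage, had 94.6, 59.1 and 113 TPM in M1 ovaries, against 232, 159 and 116 TPM in Control ovaries. Bmp15, its close relative, had 37.7, 26.9 and 51.6 TPM in M1 ovaries, against 93.0, 56.3 and 51.7 TPM in Control ovaries. M1 mouse 3 and Control mouse 3 were close to each other for both genes. Oosp1 encodes a small secreted protein of the oocyte and lies at chr19:11667460-11691150. It had 47.3, 26.4 and 67.6 TPM in M1 ovaries, against 102, 42.5 and 38.7 TPM in Control ovaries, and M1 mice 1 and 3 were above Control mice 2 and 3.

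Among the transcription factors, Nobox, the homeobox gene at chr6:43303674-43309554, had 18.2, 10.5 and 14.4 TPM in M1 ovaries, against 33.1, 29.2 and 23.0 TPM in Control ovaries. All 3 M1 mice were below all 3 Control mice. Figla, a basic helix-loop-helix gene at chr6:86016171-86020996, had 4.46, 2.09 and 5.49 TPM in M1 ovaries, against 4.60, 4.26 and 6.45 TPM in Control ovaries. Sohlh1, of the same class and at chr2:25842995-25847248, had 5.14, 3.17 and 2.25 TPM in M1 ovaries, against 3.92, 4.23 and 5.48 TPM in Control ovaries. The LIM homeobox gene Lhx8, at chr3:154306294-154330659, had 7.28, 5.14 and 6.39 TPM in M1 ovaries, against 12.3, 7.78 and 5.07 TPM in Control ovaries. The groups overlapped for these 3 genes. Figla and Sohlh1 rested on few reads: Figla had 9 to 19 counts in M1 libraries and 16 to 29 in Control libraries, and Sohlh1 had 12 to 32 counts in M1 libraries and 21 to 38 in Control libraries.

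**Figure D1:**
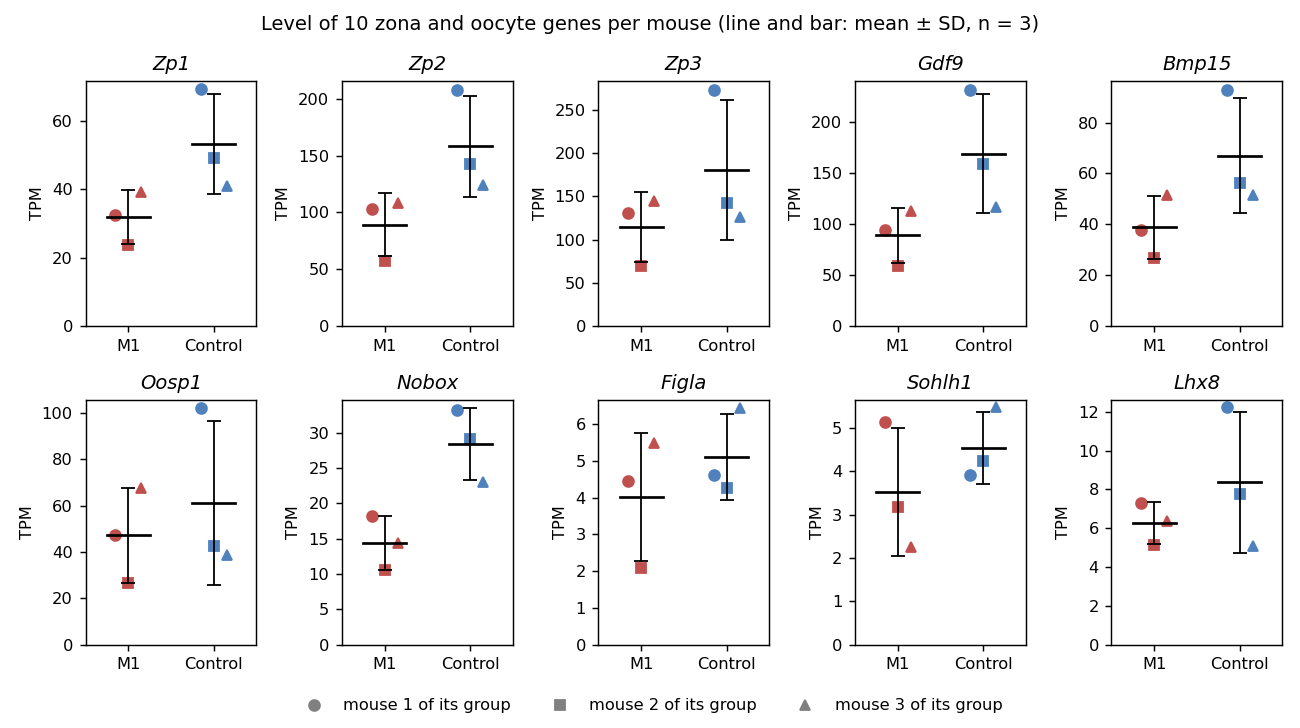
Level in TPM (y axis, from 0) of each of the 10 genes in the 3 M1 ovaries (red) and the 3 Control ovaries (blue). Each point is 1 mouse, with its shape giving its number in the group, and the black line and bar are the mean and SD of 3 mice. For Nobox the M1 ovaries lie at 10.5 to 18.2 TPM and the Control ovaries at 23.0 to 33.1 TPM, while for Oosp1 they overlap.

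Summed over the 10 genes, the level was 481, 283 and 553 TPM in M1 ovaries, against 1031, 638 and 538 TPM in Control ovaries. M1 mouse 3 was above Control mouse 3, so the groups overlapped on the sum. The make-up of this sum differed little between mice: the zona genes took 52.9% to 55.3% of it in M1 ovaries and 52.4% to 54.2% in Control ovaries. The secreted factors took 37.4% to 41.9% in M1 ovaries and 38.4% to 41.4% in Control ovaries, and the transcription factors 5.16% to 7.39% in M1 ovaries and 5.23% to 7.44% in Control ovaries.

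The comparison of M1 with Control, the only contrast of the study, was made on the counts. None of the 10 genes passed the test: edgeR called 0 of 10 against 0.00571% of all tested genes, limma-voom 0 of 10 against 0.00571%, and DESeq2 0 of 10 against 2.55%. By edgeR, 4 of the 10 had an unadjusted p under 0.05 and all 4 were lower in M1 ovaries, against 9.17% of all tested genes that were lower at that p. All 10 fitted log2 fold changes were below 0, as were those of 50.5% of all tested genes. Their median was -0.52 on the log2 CPM scale, beside -0.005 over all tested genes. By class, the median log2 fold change was -0.56 for the 3 zona genes, -0.61 for the 3 secreted factors and -0.21 for the 4 transcription factors. The 10 genes share the same oocytes and the same mice and are not 10 independent measurements.

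On CPM with TMM normalization, which is the scale of the test, every M1 ovary was below every Control ovary for 2 of the 10 genes, Zp2 and Nobox, against 11.2% of all tested genes. Nobox had 11.5, 7.62 and 9.49 CPM in M1 ovaries, against 18.9, 17.9 and 13.5 CPM in Control ovaries. Its log2 fold change was -0.81 with an SE of 0.22 (95% interval -1.33 to -0.30), with an adjusted p of 0.201 by edgeR and of 0.0508 by DESeq2. Over 17 alternative settings its adjusted p ran from 0.0508 to 0.487, and with single mice left out its log2 fold change ran from -0.96 to -0.67. Zp2 had 87.8, 56.1 and 96.3 CPM in M1 ovaries, against 161, 118 and 98.8 CPM in Control ovaries. M1 mouse 3 and Control mouse 3 were only slightly apart. The log2 fold change of Zp2 was -0.65 with an SE of 0.25 (edgeR adjusted p = 0.259).

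Gdf9 had 60.3, 43.2 and 75.0 CPM in M1 ovaries, against 134, 98.6 and 69.0 CPM in Control ovaries. Its log2 fold change was -0.75 with an SE of 0.28 and a 95% interval of -1.40 to -0.11 (edgeR adjusted p = 0.251). Zp1 had 20.2, 16.9 and 25.5 CPM in M1 ovaries, against 39.1, 29.7 and 23.7 CPM in Control ovaries, and a log2 fold change of -0.56 with an SE of 0.23 (edgeR adjusted p = 0.280). For both genes the groups overlapped on this scale, because M1 mouse 3 was above Control mouse 3. Bmp15 had a log2 fold change of -0.61 with a 95% interval of -1.24 to 0.01 (edgeR adjusted p = 0.304), and Zp3 one of -0.48 with an interval of -1.24 to 0.28 (edgeR adjusted p = 0.487).

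The other 4 genes had fitted log2 fold changes between -0.23 and -0.19 and wide intervals. That of Oosp1 ran from -1.19 to 0.80, that of Figla from -1.18 to 0.79, that of Sohlh1 from -1.09 to 0.70 and that of Lhx8 from -1.01 to 0.54. These intervals include both a fall and a rise of 1.5-fold for Oosp1, Figla and Sohlh1, so that neither was excluded at this depth and number of mice. The sign of these 4 values also rested on single mice: without Control mouse 1 the log2 fold change of Oosp1 was 0.35 and that of Lhx8 0.11, without M1 mouse 2 that of Oosp1 was 0.06 and that of Figla 0.09, without Control mouse 3 that of Figla was 0.008, and without M1 mouse 3 that of Sohlh1 was 0.06.

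**Figure D2:**
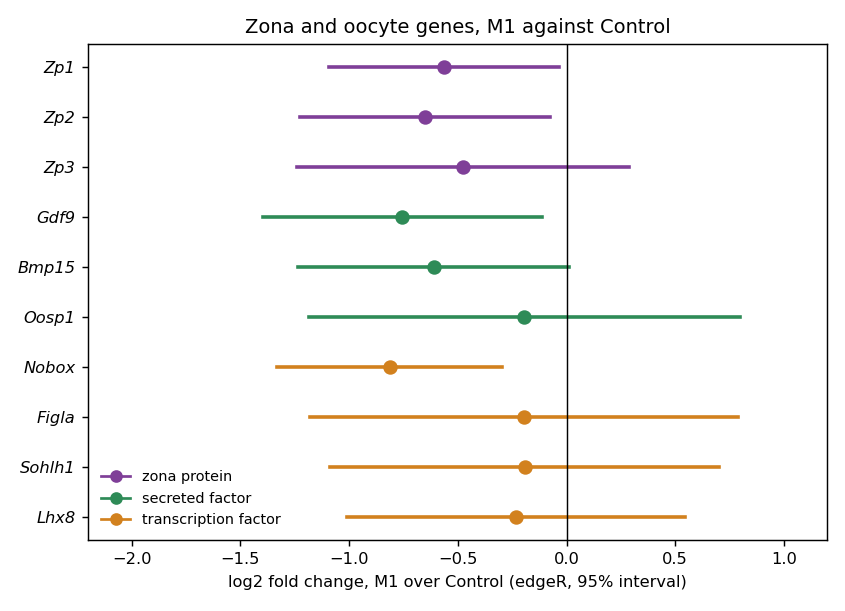
Log2 fold change of M1 over Control (x axis, edgeR) with its 95% interval for the 10 genes, coloured by class. All 10 points lie left of 0, and the intervals of Zp1, Zp2, Gdf9 and Nobox end below 0 before adjustment for the number of genes tested.

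The scale on which the ovaries were set beside each other mattered. On TPM, the M1 ovaries were all below the Control ovaries for 5 of the 10 genes (Zp1, Zp2, Gdf9, Bmp15 and Nobox), against 23.1% of all tested genes. M1 mouse 3 was only just below Control mouse 3 for Bmp15 (51.62 against 51.66 TPM), Gdf9 (113 against 116 TPM) and Zp1 (39.4 against 41.0 TPM). On CPM the groups overlapped for Bmp15, Gdf9 and Zp1. The median difference over all 19015 genes with a mean of at least 1 TPM was -0.15 on the log2(TPM + 1) scale, and the median of the 10 genes was -0.67 on that scale. Gene length also moved with the difference between the groups. Over all tested genes, the median log2 fold change was 0.27 for those of 678 to 1465 bases of exon (n = 1544). It was 0.17 for those of 1716 to 2320 bases (n = 1591) and -0.05 for those of 2532 to 8911 bases (n = 10416). Among the 10 genes and 24 other oocyte markers, the median was -0.17 for the 12 under 1500 bases, which include Zp3, Oosp1, Figla and Sohlh1, -0.61 for 8 of 1500 to 2500 bases and -0.63 for 14 over 2500 bases. With gene length as an offset, the log2 fold change of Zp3 was -0.66, that of Oosp1 -0.41, that of Figla -0.49 and that of Sohlh1 -0.42, and none of the 10 genes was called.

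The 10 genes differed in how closely they followed a common profile over the mice. Taken as log2 CPM minus the gene's mean, the mean profile of the 10 genes was -0.09, -0.60 and 0.01 in M1 mice 1 to 3, against 0.58, 0.15 and -0.05 in Control mice 1 to 3. M1 mouse 2 had the lowest level of 8 of the 10 genes, and Control mouse 1 the highest level of 8. The root mean square difference from the mean profile was smallest for Zp1 (0.10), Zp2 (0.12), Bmp15 (0.15) and Zp3 (0.17), followed by Gdf9 (0.19), Nobox (0.23) and Lhx8 (0.26). It was largest for Oosp1 (0.34), Figla (0.37) and Sohlh1 (0.52), of which the last pair had the fewest counts. The mean profile holds each gene itself, so these values are a description.

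**Figure D3:**
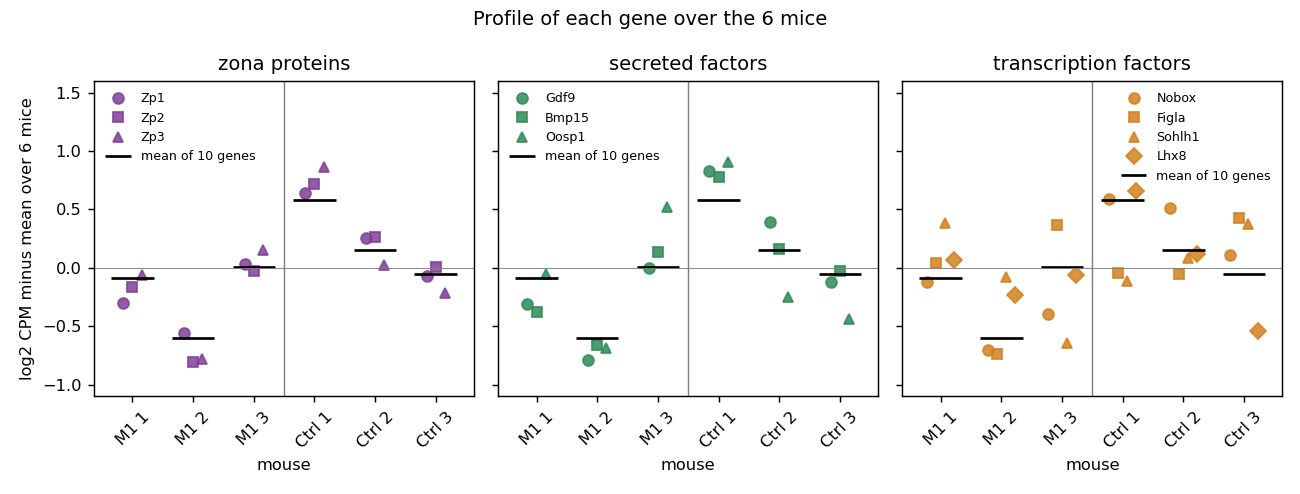
Log2 CPM of each gene minus its mean over the 6 mice (y axis) in M1 mice 1 to 3 and Control mice 1 to 3 (x axis), by class. Black bars are the mean over the 10 genes, at -0.60 in M1 mouse 2 and 0.58 in Control mouse 1. The zona genes follow the bars with some spread, as for Zp3 at 0.86 in Control mouse 1.

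Single mice moved the median of the 10 genes. Without Control mouse 1 the median log2 fold change of the 10 genes was -0.32, without M1 mouse 2 it was -0.34, and without Control mouse 3 it was -0.70. Other markers moved with these mice. Akr1c18, the progesterone-degrading enzyme of regressing corpora lutea, had 1040, 13670 and 959 TPM in M1 ovaries, against 8.97, 6510 and 3191 TPM in Control ovaries. It makes up most of the summed luteal level in M1 mouse 2. The luteal marker Prlr had 325 TPM in M1 mouse 2 against 316 TPM in Control mouse 1. In the same mice, the luteal markers Ptgfr had 467 against 366 TPM and Parm1 68.3 against 15.3 TPM. Of the 6 granulosa markers, Fshr, Inha and Amh were lowest in M1 mouse 2 and highest in Control mouse 1, while Foxl2, Inhba and Cyp19a1 were highest in M1 mice. The geometric mean of the 6 was 220, 102 and 217 CPM in M1 ovaries, against 185, 144 and 131 CPM in Control ovaries. The part of the cell make-up of single ovaries in the values of the 10 genes was not tested.

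To see whether the 10 genes moved with other oocyte transcripts, each was divided by the geometric mean CPM of 24 other oocyte markers in the same mouse. That mean was 13.3, 10.1 and 16.1 CPM in M1 ovaries, against 23.8, 15.5 and 13.1 CPM in Control ovaries, and the groups overlapped. The log2 ratio of Gdf9 was 2.18, 2.09 and 2.22 in M1 ovaries, against 2.49, 2.67 and 2.40 in Control ovaries, a difference of -0.35. That of Zp2 was 2.73, 2.47 and 2.58 in M1 ovaries, against 2.76, 2.93 and 2.92 in Control ovaries, a difference of -0.28. That of Bmp15 was 1.45, 1.55 and 1.68 in M1 ovaries, against 1.76, 1.76 and 1.82 in Control ovaries, a difference of -0.22. For these 3 of the 10 genes the M1 ovaries were all below the Control ovaries, against 0.661% of 17394 genes set over the same markers, most of which are not oocyte transcripts and so do not follow the denominator. Each had an exact two-sided permutation p of 0.1, the smallest that 3 mice against 3 allow, or 0.333 adjusted over the 10 genes.

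For the other 7 genes the ratios overlapped between the groups. The difference in log2 ratio was -0.44 for Nobox (exact permutation p = 0.2), -0.17 for Zp1 (exact permutation p = 0.2) and -0.07 for Zp3 (exact permutation p = 0.6). It was above 0 for Oosp1, Lhx8, Figla and Sohlh1, at 0.13 to 0.24, with exact permutation p of 0.4 to 1.0. The denominator mattered here as well: over Ddx4, Dazl and Npm2 alone the difference was -0.13 for Zp2, -0.20 for Gdf9 and -0.07 for Bmp15, with exact permutation p of 0.1, 0.2 and 0.7 in that order.

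**Figure D4:**
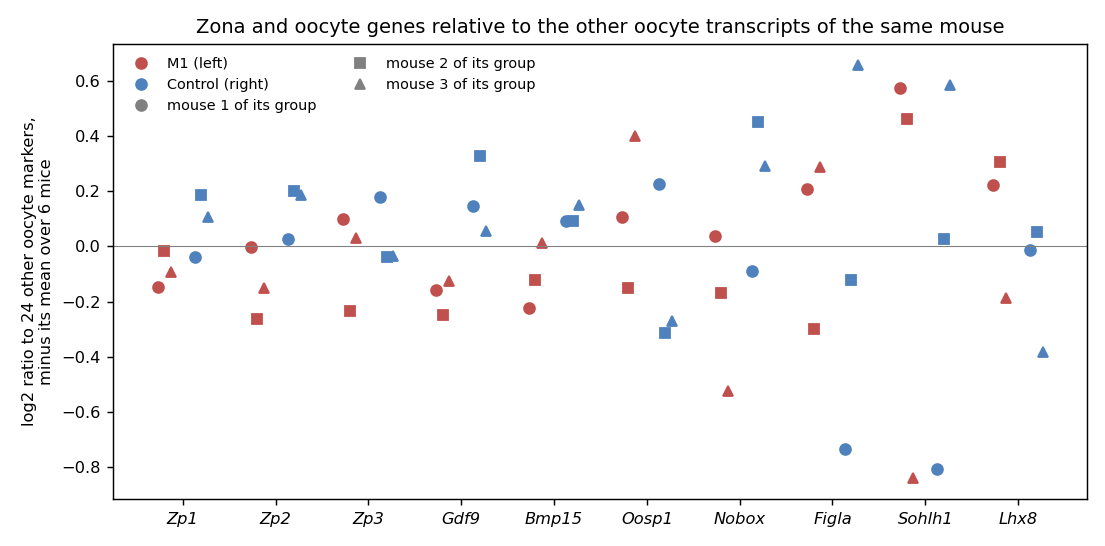
Log2 ratio of each gene's CPM to the geometric mean CPM of 24 other oocyte markers in the same mouse, minus its mean over the 6 mice (y axis), for M1 (red, left) and Control (blue, right). Each point is 1 mouse. The groups do not overlap for Zp2, Gdf9 and Bmp15, and Figla and Sohlh1, which had the fewest counts, spread most.

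Ratios between the genes of a class were compared for 3 pairs. The TPM of Zp1 over that of Zp2 was 0.365 ± 0.049 in M1 ovaries and 0.337 ± 0.008 in Control ovaries (SD, n = 3 each, exact permutation p = 0.4). Zp3 over Zp2 was 1.28 ± 0.07 in M1 ovaries and 1.11 ± 0.18 in Control ovaries (SD, n = 3 each, exact permutation p = 0.3). Bmp15 over Gdf9 was 0.437 ± 0.034 in M1 ovaries and 0.400 ± 0.045 in Control ovaries (SD, n = 3 each, exact permutation p = 0.3). The groups overlapped for all 3 ratios, and the p adjusted over the 3 ratios was 0.4 for each.

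The genes whose profile over the 6 mice was most like the mean profile of the 10 were sought among 15960 tested genes with a mean of at least 1 CPM. By the root mean square difference of centred log2 CPM these were Lmo7 (0.044), Hpcal1 (0.058), Cdca5 (0.062), Zgrf1 (0.063) and Lrguk (0.072). With standardised profiles and genes of no list, the closest of 15862 genes was Obox1 (0.063), an oocyte homeobox gene, followed by Cdca5, Dhtkd1, Lrguk and Lmo7. Obox1 had 7.92, 4.97 and 8.70 CPM in M1 ovaries, against 15.4, 10.0 and 7.88 CPM in Control ovaries. M1 mice 1 and 3 were above Control mouse 3, so the groups overlapped.

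Other oocyte genes were read from the same fit. Of 24 other oocyte markers, 20 had a log2 fold change below 0, against 50.5% of all tested genes, and the median was -0.25. At an unadjusted edgeR p under 0.05, 8 were lower in M1 ovaries, against 9.17% of all tested genes. EdgeR and limma-voom called 0 of the 24, and DESeq2 called 5, all lower in M1 ovaries, against 2.55% of the genes it tested in either direction. These 5 were Nlrp5 (edgeR log2 fold change -1.32), Padi6 (-0.84), Nlrp14 (-1.02), Astl (-0.78) and Izumo1r (-1.35). Nlrp5 and Padi6 belong to the maternal complex under the oocyte membrane. Ooep (0.035), Tle6 (0.044) and Khdc3 (-0.073), of the same complex and the same list, were not called by DESeq2. Astl is the ovastacin protease that cuts ZP2 after fertilization, and Izumo1r is the oocyte receptor of sperm IZUMO1. Nlrp5 had 42.3, 20.1 and 36.6 CPM in M1 ovaries, against 68.7, 75.6 and 103 CPM in Control ovaries. Astl had 13.2, 12.2 and 17.3 CPM in M1 ovaries, against 23.3, 27.7 and 22.2 CPM in Control ovaries. The groups did not overlap for either gene. The DESeq2 adjusted p was 0.00201 for Nlrp5, 0.00471 for Nlrp14, 0.0349 for Padi6, 0.0247 for Astl and 0.0388 for Izumo1r, while the highest adjusted p over the alternatives was 0.487 for each of the 5.

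Of 6 genes of zona processing and sperm contact, 5 had a log2 fold change below 0 and the median was -0.66. At an unadjusted edgeR p under 0.05, 4 of the 6 were lower, against 9.17% of all tested genes, and Astl and Izumo1r are among these 4 and were already counted above. The others below 0 were Pcsk5 (-0.55), Pcsk6 (-0.81) and Furin (-0.15), which encode proprotein convertases, the class of protease that cuts zona proteins and TGF-beta family precursors. The sixth was Cd9 (0.17), the tetraspanin needed for gamete fusion, which was below 0 at -0.02 on TPM. Without Control mouse 1, Pcsk5 passed the adjusted threshold in edgeR (log2 fold change -0.66, adjusted p = 0.0419, range over the alternatives 0.0419 to 0.497). In that setting edgeR called 782 genes in all, against 1 with all 6 mice, so passing there was not particular to Pcsk5. Pcsk5, Pcsk6, Furin and Cd9 are also made by other cells of the ovary.

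Of 7 other oocyte transcription factor genes, all had a log2 fold change below 0, against 50.5% of all tested genes, and the median was -0.52. At an unadjusted edgeR p under 0.05, 3 were lower, against 9.17% of all tested genes. These 3 were Foxo3, Taf4b and Nr6a1, and the cell source of their transcripts in whole ovary was not tested. Foxo3, which holds primordial follicles at rest, had 78.4, 74.3 and 69.7 CPM in M1 ovaries, against 93.4, 114 and 119 CPM in Control ovaries, without overlap. Its log2 fold change was -0.55 (SE 0.13), with an adjusted p of 0.195 by edgeR, and its adjusted p ran from 0.0373 to 0.487 over the alternatives. The values were -0.52 for Taf4b, -0.67 for Nr6a1, -0.70 for Obox5 and -0.43 for Tbpl2, none past the adjusted threshold in edgeR with all 6 mice. Nr6a1 passed it without Control mouse 1 (log2 fold change -0.87, edgeR adjusted p = 0.0478, range over the alternatives 0.0478 to 0.560). Without that mouse edgeR called 782 genes in all, against 1 with all 6 mice.

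A list of 7 genes known to be lower in ovaries of Nobox-null mice was also read, since Nobox had the smallest p of the 10. The reason for reading it thus rests on these same data. It is not a separate set: Mos, Zar1, H1foo and Rfpl4 are among the 24 other oocyte markers. Pou5f1 is among the other oocyte transcription factor genes above. The median log2 fold change of the 7 was -0.14, and 5 of 7 were below 0, against 50.5% of all tested genes. The listed genes above 0 were Rfpl4 (0.055) and Fgf8 (0.016). None of the 10 genes is on this list, so Gdf9 (-0.75) and Bmp15 (-0.61) are not in its median. An effect of the Nobox level on any of these genes was not tested. At an unadjusted edgeR p under 0.05, 1 of the 7 listed genes was lower, against 9.17% of all tested genes. Dnmt1, the maintenance DNA methyltransferase, had 127, 106 and 126 CPM in M1 ovaries, against 199, 227 and 229 CPM in Control ovaries, without overlap. Its log2 fold change was -0.87 (SE 0.13), and its adjusted p was 0.195 by edgeR, where it was not called, and 1.0e-04 by DESeq2, where it was, with 0.487 as the highest over the alternatives. Dnmt1 is not particular to the oocyte. The oocyte genes Pou5f1 (-0.13), Mos (-0.15), Zar1 (-0.22) and H1foo (-0.14) belong to this list too, and each of these 4 was above 0 without Control mouse 1 or without M1 mouse 2.

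For the receiving side of these factors, 13 genes of receptors and SMADs that carry or inhibit GDF9 and BMP15 signals were read. Many cells of the ovary make them. Their median was -0.15 on the log2 fold change scale, with 8 below 0, against 50.5% of all tested genes. EdgeR and limma-voom called 0 of them, and at an unadjusted edgeR p under 0.05 Smad5 was lower, against 9.17% of all tested genes. Smad1 and Smad6 were higher at that p, and the share of all tested genes that were higher was not computed. Of the 13 genes DESeq2 called 1, against 2.55% of the genes it tested. This was Smad5, with 94.0, 89.3 and 98.3 CPM in M1 ovaries, against 121, 158 and 163 CPM in Control ovaries. Its log2 fold change was -0.65 (SE 0.14), and its adjusted p was 0.195 by edgeR and ran from 0.0196 to 0.487 over the alternatives. Its relative Smad1 had 117, 130 and 158 CPM in M1 ovaries, against 97.0, 75.1 and 104 CPM in Control ovaries, with a log2 fold change of 0.55 (edgeR adjusted p = 0.220). Smad6, an inhibitor of the BMP branch, had a log2 fold change of 0.45, Smad2 one of -0.50 and the type I receptor gene Bmpr1a one of -0.29. None of these 4 passed the adjusted threshold in edgeR with all 6 mice, and Smad2 passed it without Control mouse 1 (log2 fold change -0.71, edgeR adjusted p = 0.0442, range over the alternatives 0.0442 to 0.631). Without that mouse edgeR called 782 genes in all, against 1 with all 6 mice.

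For 10 antagonists and related ligands the median was -0.08 on the log2 fold change scale. EdgeR, DESeq2 and limma-voom called 0 of them, and 1 was lower in M1 ovaries at an unadjusted edgeR p under 0.05, against 9.17% of all tested genes. Kitl, the granulosa ligand of the oocyte receptor KIT, had 33.9, 56.0 and 32.3 CPM in M1 ovaries, against 54.2, 82.0 and 95.3 CPM in Control ovaries. Its log2 fold change was -0.92 (SE 0.27, edgeR adjusted p = 0.212), and M1 mouse 2 was above Control mouse 1. The values were 0.66 for Inhba, 0.37 for Fst, 0.57 for Grem1 and -1.24 for Fstl3, which had few counts. Of 5 cumulus genes known to be induced by GDF9 in the mouse, 3 were tested: Grem1, Tnfaip6 (0.88) and Ptx3 (0.004). Has2 had 2, 7 and 3 counts in M1 libraries, against 11, 2 and 4 in Control libraries. Ptgs2 had 3, 2 and 8 counts in M1 libraries, against 5, 2 and 4 in Control libraries. The levels of Has2 and Ptgs2 were too low for the filter. None of the 3 tested cumulus genes passed the adjusted threshold in edgeR.

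Annotated neighbours within 5000 bases were examined because the counting was not stated to use strand. No neighbour shared exon bases with any of the 10 genes. The closest expressed one was Uqcrq, a subunit gene of respiratory complex III, which lies 192 bases from Gdf9 on the opposite strand. Uqcrq had 129, 160 and 155 CPM in M1 ovaries, against 86.2, 87.1 and 81.5 CPM in Control ovaries, with a log2 fold change of 0.80 (edgeR adjusted p = 0.195). All 3 M1 values of Uqcrq were above its Control values. Prpf19, 4728 bases from Zp1 on the opposite strand, had a log2 fold change of -0.27. The other 3 neighbours, AI606473 at 162 bases from Lhx8 and Gm26183 and Gm25443 near Oosp1, had 0 counts in every library.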

How the data were processed

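Ovaries of 3 M1 and 3 Control mice were measured with 1 library per mouse, and groups were taken from the sample titles. Per the submitters' processing notes, reads were checked with FastQC and MultiQC, trimmed with Trimmomatic 0.38, aligned with HISAT2 2.1.0 to GRCm38 and counted with featureCounts 2.0.0, with strand and multimapper settings not given in the sources used here. The deposited counts are whole numbers per gene without normalization. From these counts and gene lengths the authors made the TPM table, as deposited. The deposited FPKM values were used only to recover lengths, which for 100% of 33353 genes with a count matched the merged exons of GENCODE vM21 to 1 base.

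The counts were fitted with edgeR 4.0.16 under R 4.3.3 (filterByExpr with a minimum count of 10 and total of 15, TMM, quasi-likelihood F test, group as the only term). Adjusted p-values are Benjamini-Hochberg values over all tested genes, and a gene was called where this was under 0.05 and the fold change exceeded 1.5. An SE is the log2 fold change over the root of F. CPM are TMM-normalized, and profiles used log2 CPM with a prior count of 2. Alternatives used DESeq2 1.42.0, limma 3.58.1 (voom, and log2 TPM with pseudocounts of 1 and 0.1), RLE factors, other filters, a replicate block, a gene length offset (lowess span 0.5) and each mouse left out. Exact permutation tests used SciPy 1.17.1. The main edgeR fit was first tested on simulated data drawn from the real means and library sizes. So were RLE factors, the replicate block, the length offset, DESeq2, limma-voom and log2(TPM + 1). The other filters, the offset with block, the other TPM fits and the fits with a mouse left out were not.

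The 10 genes and all gene lists were chosen with earlier results of these data known. All 10 are named. Of each list, the text names genes with an adjusted p under 0.05 in any of edgeR, DESeq2 or limma-voom and, up to 5, those with the smallest edgeR p. Furin was named after its value was seen, as the remaining member of its list. Sequences are from RefSeq. Samples with the same replicate number were not treated as pairs.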

Additional observations from a re-analysis of the deposited data

How the results depend on the processing

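The count of 0 called genes among the 10 held under every alternative run. The median log2 fold change of the 10 genes stayed below 0 throughout, from -0.70 to -0.32 with single mice left out, and was -0.51 with the replicate block. Of all tested genes, 1 was called by edgeR, against 405 by DESeq2, 155 without a filter on low counts, 2 on log2(TPM + 0.1), and 0 on log2(TPM + 1) without a filter, with the replicate block or with the gene length offset and block. With single mice left out it was 0 to 782, the highest without Control mouse 1 and 0 without M1 mouse 1, M1 mouse 2 or Control mouse 3. Same-numbered mice were not seen to be pairs. Their deviations correlated at 0.067, 0.106 and -0.255, and not every mouse correlated best with its own number. With 3 mice a group and deviations taken from the group mean, this check cannot settle whether mice were paired. The block changed no call of the 10 genes. With single mice left out, the log2 fold change ranged from -0.53 to 0.35 for Oosp1, -0.46 to 0.089 for Figla, -0.49 to 0.058 for Sohlh1, -0.49 to 0.11 for Lhx8, -0.33 to 0.18 for Pou5f1, -0.37 to 0.21 for Mos, -0.53 to 0.24 for Zar1, -0.40 to 0.28 for H1foo, -0.062 to 1.19 for Grem1 and -0.25 to 0.16 for Ptx3. Cd9 was at -0.017 in all 3 fits on TPM. Ptx3 was at -0.017 by limma-voom, -0.029 with the block, -0.061 with the length offset, -0.10 with offset and block, -0.17 on log2(TPM + 1) with and without a filter, and -0.21 on log2(TPM + 0.1). Over Ddx4, Dazl and Npm2 the log2 ratio differed between M1 and Control by -0.02 for Zp1, -0.13 for Zp2, -0.20 for Gdf9 and -0.07 for Bmp15. The cause of these shifts was not tested. Leaving single mice out of the ratios was chosen after seeing the data; the difference stayed at -0.42 to -0.28 for Gdf9, -0.34 to -0.21 for Zp2 and -0.28 to -0.17 for Bmp15. With 3 mice a group and 9 to 38 counts, Figla and Sohlh1 allow no firm statement in either direction.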
